A study of Mus musculus with 4 samples.

Results

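Beta-catenin and the proteins that hold its level down were followed as 9 genes, chosen for their known function, with earlier results of these data in view, out of the 21937 features in the count matrices. The 9 genes are Ctnnb1 (beta-catenin), the scaffolds Apc, Apc2 and Axin1, the kinases Gsk3a, Gsk3b and Csnk1a1, the ubiquitin ligase receptor Btrc, and Jup (plakoglobin, the closest relative of beta-catenin). All 9 were found in the files. The study profiled single cells from the midline of the embryonic mouse telencephalon, dissected around the cortical hem, in 4 libraries: 1 control and 1 beta-catenin gain-of-function (gof) library at E11.5 (E, embryonic day), and the same pair at E14.5. Control embryos carried Lmx1aCre and the Ai9 reporter, and gof embryos carried Lmx1aCre, Ai9 and the b-cat gof allele, so the Cre driver and the reporter were common to every library. Lmx1aCre is a recombinase under control of the Lmx1a gene, which marks the hem, and Ai9 yields the red fluorescent protein tdTomato in cells that met the recombinase. Male embryos were pooled for each library, 5 of them at the younger age and 3 at the older. With 1 library per group, genotype, pool and library cannot be told apart, nor can age, pool and library, so no test between groups was possible and each value below describes these 4 libraries.

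In cells without a Wnt signal, Axin and APC scaffolds bring beta-catenin to casein kinase 1 alpha (Csnk1a1) and GSK3, which phosphorylate it. The phosphorylated protein is then recognised by beta-TrCP (Btrc) and degraded. A Wnt signal disables this destruction complex, and the beta-catenin that accumulates acts in the nucleus with TCF and LEF factors, while a separate pool of beta-catenin and plakoglobin anchors cadherins at cell junctions. The cortical hem is a Wnt-secreting strip at the margin of the cortical primordium that borders the choroid plexus and gives rise to Cajal-Retzius neurons. Control of beta-catenin acts on the protein, which mRNA counts do not measure. Which part of Ctnnb1 the allele alters is not stated in the labels, and counts from the 3′ end of transcripts do not check the allele.

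The libraries held 59594082 to 113821989 UMIs (unique molecular identifiers, which count captured transcripts), and 25457 cells passed the filters, 5317 to 7024 per library, with median depths of 5644 to 14072 UMIs. Between 6 and 13 cell barcodes were shared by any pair of libraries. A cell was called tdTomato-positive at 2 or more tdTomato UMIs, which held for 563 cells of the E11.5 control, 294 of the E11.5 gof, 1110 of the E14.5 control and 1043 of the E14.5 gof library, and negative at 0 UMIs. Negative cells can include some that met the recombinase. The genotype labels were checked on 2 feedback targets of Wnt signalling in tdTomato-positive cells. Notum stood at 1.05 CPM (a gene's UMIs per total UMIs, on the usual scale) in control and 70.8 in gof cells at E11.5 and at 0.602 and 192 CPM at E14.5, and Nkd1 at 46.0 and 167 CPM and at 86.6 and 565 CPM. In tdTomato-negative cells Notum was at 1.34 and 5.73 CPM at E11.5 and at 0.454 and 2.49 CPM at E14.5, control first. Nkd1 there was at 29.0 and 33.9 CPM at E11.5 and at 44.3 and 32.6 CPM at E14.5. Negative gof cells were thus above control at both ages for Notum, but below control for Nkd1 at E14.5. Axin2 (65.0 and 27.6 CPM) and Lef1 (209 and 87.2 CPM) were also lower in the negative gof cells at E14.5. Levels are CPM of the UMIs summed over cells, with exact 95% Poisson intervals that cover counting error only. A gene was called higher or lower when it reached at least 10 CPM on either side, differed by at least 1.5-fold after 1 CPM was added, and had separate intervals.

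Between gof and control, 0 to 2 of the 9 genes were called in each of these sums. Over whole libraries at E11.5, 1 member, Jup, was called (higher) of the 8 that passed the 10 CPM filter, where 8.39% of 8413 genes were called in either direction. At E14.5 none of 8 was called, where 11.1% of 9751 genes were called. In tdTomato-positive cells at E11.5, Btrc and Jup were called, 2 of 8 and both higher, beside 10.3% of all genes tested (4.68% higher and 5.66% lower). In tdTomato-positive cells at E14.5, Gsk3a alone was called, 1 of 9 and higher, beside 23.5% (6.84% higher and 16.6% lower). Cells without tdTomato gave 1 called member at E11.5, again Jup, beside 8.10%, and none at E14.5, beside 9.40%. The median log2 ratio of the tested members in tdTomato-positive cells was 0.06 (E11.5) and -0.04 (E14.5), against -0.08 and -0.12 over all genes. The members that did not pass the 10 CPM filter were Apc2 at E11.5 in these sums and Jup at E14.5 in the whole-library and tdTomato-negative sums. Scaling by the median ratio instead of the total moved the median of all genes in the E11.5 whole-library comparison from -0.11 to 0.02, and the share of higher genes among those called from 52.3% to 80.0%. In tdTomato-positive cells at E11.5 it moved that share from 45.3% to 65.4%. Small log2 ratios at E11.5 are read against that shift.

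**Figure D1:**
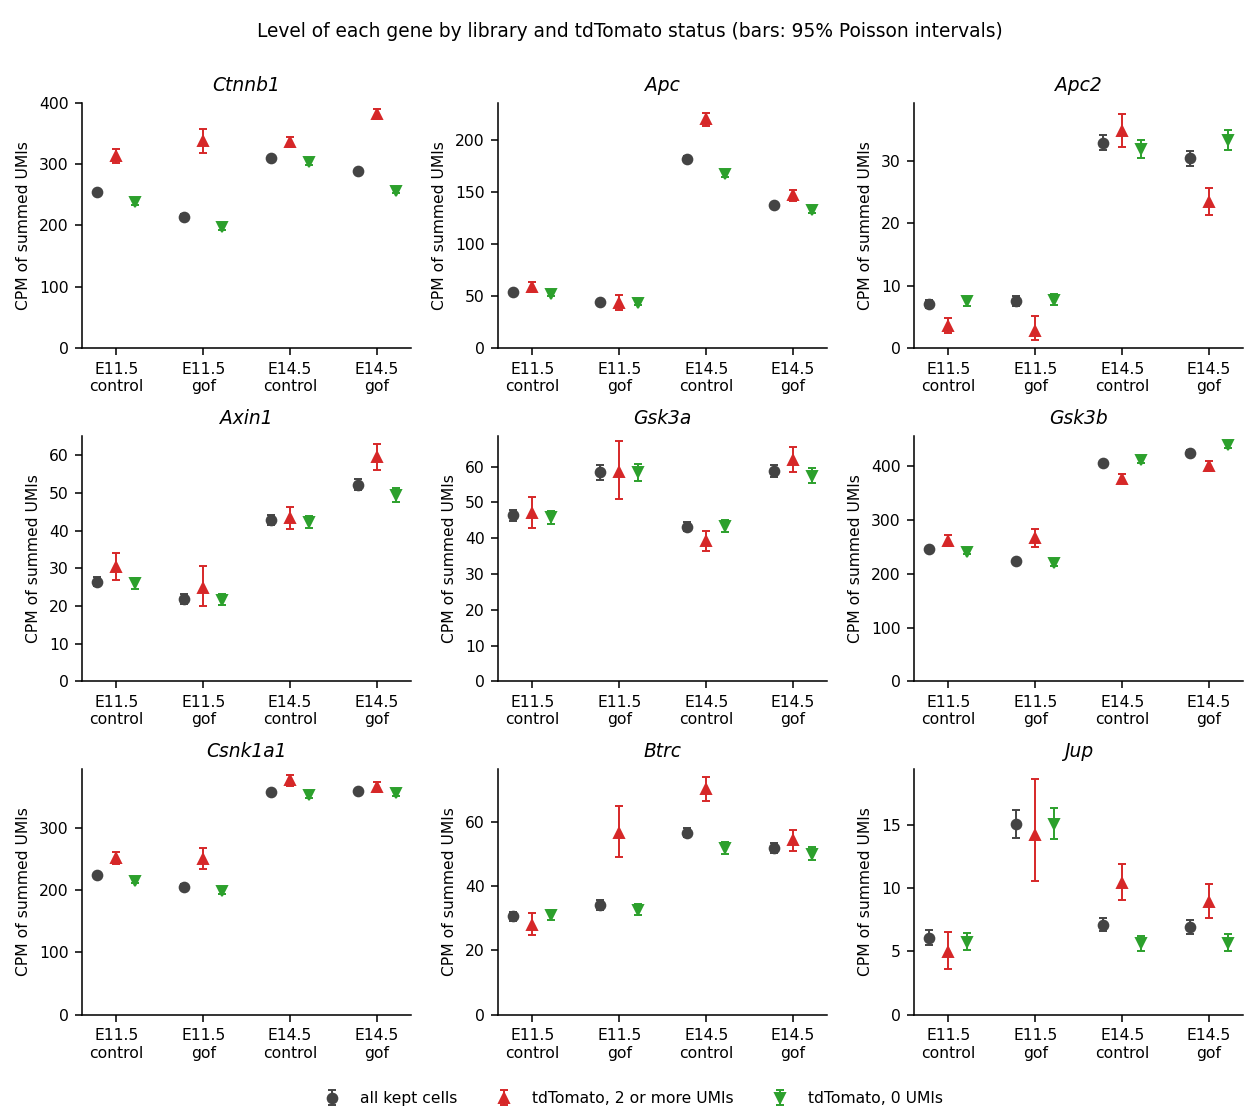
Level of each of the 9 genes in CPM (vertical axis, linear, from 0) by library (horizontal axis), in all kept cells, in tdTomato-positive cells (2 or more UMIs) and in tdTomato-negative cells (0 UMIs), with 95% Poisson intervals. Ctnnb1 lay above the tdTomato-negative level in the tdTomato-positive cells of every library, Btrc stood out in the tdTomato-positive E11.5 gof cells at 56.6 CPM, and Apc and Apc2 were several-fold higher in both E14.5 libraries.

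Ctnnb1 (chr9:120929216-120960507, + strand, mouse build GRCm38) encodes beta-catenin itself. Over all kept cells it stood at 254 CPM (250 to 258) in the E11.5 control, 214 (210 to 218) in the E11.5 gof, 310 (307 to 313) in the E14.5 control and 288 (285 to 292) in the E14.5 gof library. In tdTomato-positive cells the levels in the same order were 314 (302 to 325), 337 (318 to 356), 336 (328 to 344) and 382 CPM (373 to 390). In tdTomato-negative cells they were 238, 198, 303 and 257 CPM. The gof library was thus the lower one over all cells and in negative cells at both ages, and the higher one in positive cells. None of these differences between libraries reached the 1.5-fold limit. The log2 ratio in positive cells was 0.10 at E11.5, where the intervals overlapped, and 0.18 at E14.5, where they did not. With positive cells taken at 1 or more tdTomato UMIs, the E11.5 ratio turned to -0.05.

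Within every library Ctnnb1 was higher in tdTomato-positive than in tdTomato-negative cells. The log2 ratio was 0.40 in the E11.5 control and 0.77 in the E11.5 gof library, and 0.15 and 0.57 in the E14.5 pair. The difference was called in the E11.5 gof library only, where 2 members, Ctnnb1 and Btrc, were called beside 13.5% of all genes. No member was called in the E11.5 control (8.54% of genes) or the E14.5 gof library (17.9%), and 1, Jup, in the E14.5 control (19.1%), at 10.4 against 5.64 CPM, a log2 ratio of 0.78. That call was lost with no doublets removed (0.72), with 5 CPM added (0.54), at 1 or more (0.69) and 4 or more (0.57) tdTomato UMIs, and without neuron, choroid plexus and non-neural gates (1.09). The ratios of 0.72, 0.69 and 1.09 were still past the 1.5-fold limit, so the filter or the intervals took the call. Jup was highest in the Cajal-Retzius gate of that library, at 26.5 CPM (21.4 to 32.4), and this gate held 222 of its 1110 positive cells, a part that was not tested further. In the E11.5 gof library, taking positive cells at 1 or more UMIs left the Ctnnb1 ratio at 0.55, which was not called. Ctnnb1 also differed between cell classes. In both control libraries it was highest in the hem gate, at 399 CPM (384 to 415) at E14.5. In both gof libraries it was highest in the choroid plexus gate, at 312 against 282 CPM in the hem at E11.5, which overlapped, and at 548 against 362 CPM at E14.5, which did not. The hem gate held 60.6% of positive cells in the E11.5 control, 40.5% in the E11.5 gof, 27.0% in the E14.5 control and 9.59% in the E14.5 gof library. In the E14.5 gof library the intermediate progenitor gate held 37.2% of them. Inside the hem gate at E11.5, positive and negative cells held 335 and 298 CPM in the control and 351 and 243 CPM in the gof library, with log2 ratios of 0.17 and 0.53, neither called, beside 3.49% and 5.12% of genes.

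Apc, the large scaffold whose loss in the gut epithelium opens the way to tumours, lies on chromosome 18. Its level was 53.4 CPM (51.7 to 55.2) in the E11.5 control and 44.1 (42.3 to 46.0) in the E11.5 gof library. At E14.5 it was 182 CPM (179 to 184) in control and 137 (134 to 139) in gof. The gof library was lower at each age with separate intervals, by a log2 ratio of -0.27 and -0.41, as were 23.9% of 8123 genes that passed the filter at both ages. In tdTomato-positive cells Apc was at 58.5 (53.7 to 63.5) and 43.5 CPM (37.0 to 50.9) at E11.5 and at 219 (213 to 226) and 146 CPM (141 to 152) at E14.5. These ratios, -0.42 and -0.58, were the lowest of the members that passed the filter at each age, and neither was called. Beside the E14.5 value, the Cajal-Retzius gate, where Apc was highest in the control library (309 CPM), held 222 of 1110 positive cells in control and 24 of 1043 in gof. The summed level of the 6 Cajal-Retzius markers, none at 0, was 1322 against 204 CPM in those positive cells, and their part in the Apc difference was not tested. At E14.5 the ratio lay at the limit: with every cell weighted equally it was -0.61 and was called, as it was without cells of 10 or more Btrc UMIs. In tdTomato-negative cells the ratios were -0.27 and -0.33, so the gof library was also the lower one in cells with 0 tdTomato UMIs. Thinned to 3000 UMIs per cell, 46.6% of positive E14.5 control cells and 31.2% of positive E14.5 gof cells held an Apc UMI, against 88.8% and 79.8% unthinned.

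Apc2 (chr10:80295977-80318263, + strand), an APC relative used mainly in neurons, was scarce in the E11.5 whole-library sums, and its highest gate was a neuronal one in every library. At E11.5 it was at 51.4 CPM in the Cajal-Retzius gate in control and 59.9 in gof, against 5.44 and 4.07 CPM in the progenitor gate. Whole-library levels were 7.02 and 7.51 CPM at E11.5 and 32.9 (31.8 to 34.0) and 30.4 CPM (29.2 to 31.6) at E14.5, control first. In tdTomato-positive cells at E14.5 it stood at 34.8 CPM (32.2 to 37.5) in control and 23.3 (21.3 to 25.6) in gof, a log2 ratio of -0.56 that was not called. Beside that value stand the Cajal-Retzius cell and marker numbers given for Apc, and Apc2 in the Cajal-Retzius gate of the E14.5 control was at 67.2 CPM. The part of these cells in the Apc2 difference was not tested.

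Axin1 (chr17:26138688-26195811, + strand) encodes the scaffold that limits assembly of the complex. Levels were 26.4 (25.2 to 27.7) and 21.8 CPM (20.5 to 23.1) at E11.5 and 42.8 (41.5 to 44.1) and 52.2 CPM (50.7 to 53.8) at E14.5. The gof library was the lower one at E11.5 and the higher one at E14.5, with log2 ratios of -0.27 and 0.28 that stayed under the limit. In tdTomato-positive cells the levels were 30.2 and 24.8 CPM at E11.5 and 43.4 (40.5 to 46.4) and 59.5 CPM (56.2 to 63.0) at E14.5. The E14.5 ratio of 0.45 was not called. Axin2, its paralogue and a direct Wnt target, was called higher at both ages in the same cells, from 121 to 188 CPM and from 147 to 254 CPM.

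Gsk3a (chr7:25228258-25237851, - strand) and Gsk3b (chr16:38089001-38246084, + strand) encode the paired isoforms of GSK3, the kinase that completes the phosphorylation by which the ligase recognises beta-catenin. Gsk3a stood at 46.4 CPM (44.8 to 48.0) in the E11.5 control, 58.4 (56.3 to 60.6) in the E11.5 gof, 43.2 (41.9 to 44.5) in the E14.5 control and 58.7 (57.1 to 60.4) in the E14.5 gof library. Both gof libraries lay above both controls, and no interval of one genotype overlapped one of the other, as for 1.29% of the 8123 genes that passed the filter at both ages. The log2 ratios of 0.33 and 0.43 did not reach the limit. In tdTomato-positive cells the levels were 47.0 (42.8 to 51.6), 58.6 (50.9 to 67.1), 39.2 (36.5 to 42.1) and 62.0 CPM (58.6 to 65.5). There the E14.5 difference was called, with a log2 ratio of 0.65, and the E11.5 ratio of 0.31 was not. With positive cells taken at 1 or more tdTomato UMIs the E14.5 ratio was 0.49 and was not called. Cells without tdTomato showed the same order, at 45.8 and 58.4 CPM at E11.5 and 43.4 and 57.4 CPM at E14.5, with log2 ratios of 0.34 and 0.40. Thinned to 3000 UMIs, the share of all cells with a Gsk3a UMI was 12.7% and 16.5% at E11.5 and 11.8% and 16.2% at E14.5, against 35.1%, 31.3%, 44.2% and 56.1% unthinned.

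The promoter of Gsk3a, the member called in tdTomato-positive cells at E14.5, was read from RefSeq sequence (build GRCm38.p6) as the 250 bases before the transcription start, beside that of Jup, called at E11.5. Both are shown because they differ in the 7-letter core bound by TCF and LEF factors, searched as CTTTGAT or CTTTGAA on both strands and given in capitals where it matched. The Gsk3a window is chr7:25237852-25238101 on the - strand, and its match, on the strand opposite to the one printed, begins at base 93 of the window and ends 151 bases before the start. The Jup window is chr11:100397791-100398040, also on the - strand, and holds no match.
Gsk3a: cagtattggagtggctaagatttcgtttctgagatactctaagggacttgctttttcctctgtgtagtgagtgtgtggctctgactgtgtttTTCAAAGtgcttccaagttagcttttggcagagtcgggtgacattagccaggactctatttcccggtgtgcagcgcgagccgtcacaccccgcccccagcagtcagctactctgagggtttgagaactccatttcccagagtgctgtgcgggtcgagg
Jup: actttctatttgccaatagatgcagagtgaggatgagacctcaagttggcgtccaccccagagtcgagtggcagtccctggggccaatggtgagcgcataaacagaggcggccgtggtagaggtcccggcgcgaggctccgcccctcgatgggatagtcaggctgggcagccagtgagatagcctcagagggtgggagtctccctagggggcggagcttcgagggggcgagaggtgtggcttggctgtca
Of 32851 promoter windows of this length, 7.48% held at least 1 such match. The windows of Ctnnb1, Apc2 and Gsk3b held none, and no window of Apc, Axin1, Csnk1a1 or Btrc is given here. Among Wnt targets, the windows of Axin2, Lef1 and Nkd1 held none either, and that of Sp5 held 1. A match is a description of the letters only.

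Gsk3b was among the more abundant members, at 246 and 224 CPM at E11.5 and 406 and 425 CPM at E14.5, control first. In tdTomato-positive cells it was at 262 and 266 CPM and at 376 and 400 CPM. Its log2 ratios between gof and control lay between -0.13 and 0.09 in these sums. Csnk1a1, the gene of casein kinase 1 alpha on chromosome 18, was as even: 223 and 205 CPM at E11.5 and 357 and 358 CPM at E14.5 over all cells, and 251, 250, 376 and 366 CPM in positive cells. Its log2 ratios lay between -0.12 and 0.01. Neither kinase gene was called in any gof comparison over whole libraries, positive or negative cells. With median-ratio scaling the E11.5 whole-library ratio of Csnk1a1 turned from -0.12 to 0.01.

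Btrc (chr19:45363734-45530013, + strand) encodes beta-TrCP. Over all cells it was at 30.5 and 34.1 CPM at E11.5 and 56.5 and 51.7 CPM at E14.5. In tdTomato-positive cells it was at 27.9 CPM (24.7 to 31.5) in the E11.5 control and 56.6 (49.1 to 65.0) in the E11.5 gof library, a log2 ratio of 0.99 that was called. At E14.5 the positive cells held 70.1 (66.5 to 73.9) and 54.2 CPM (51.0 to 57.5), a ratio of -0.37 that was not called. The E11.5 difference rested on a handful of cells. Of 203 Btrc UMIs in the 294 positive gof cells, 115 (56.7%) came from 4 cells, and the 3 highest held 44, 29 and 25 UMIs. In the E11.5 control, 2 of 563 positive cells with 10 or more UMIs held 25 of 266 (9.40%). Without cells of 10 or more Btrc UMIs, an alternative chosen after seeing these values, the log2 ratio was -0.040. At 4 or more tdTomato UMIs it was 0.11 and at 1 or more it was 0.45, neither called. The share of positive cells with a Btrc UMI was lower in gof than in control, at 20.7% against 32.9%, and at 5.45% against 7.69% once thinned.

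Cells past this limit occurred in every library and in more than 1 gate, but the limit takes no account of depth. Cells with 10 or more Btrc UMIs numbered 13 in the E11.5 control, 16 in the E11.5 gof, 8 in the E14.5 control and 5 in the E14.5 gof library, and fell in 5, 6, 3 and 3 gates. They held 11%, 28.6%, 1.69% and 1.23% of the Btrc UMIs of their library. The highest single cell held 27, 65, 17 and 11 Btrc UMIs. Median depth of these high cells was 11269, 6878, 87122 and 21835 UMIs. Over all kept cells it was 8172.5, 5644, 12885.5 and 14072 UMIs. At E14.5, above all in the control, the limit thus took in cells far deeper than usual. Without the high cells Btrc was at 27.2 and 24.4 CPM at E11.5 and at 55.9 and 51.1 CPM at E14.5. The call of Btrc higher in positive than in negative cells of the E11.5 gof library, with a log2 ratio of 0.78, came to 0.03 without them. Jup, which has few UMIs, also rested on few cells in the tdTomato-positive E11.5 gof sum, where the 5 highest cells held 45.1% of its UMIs, against 60.6% for Btrc. Apc2 had only 10 UMIs in that sum and no cell held more than 1. Its share of 50% is therefore set by the number of UMIs and shows no concentration. Among the other 6 members the highest such share in that sum was 18% (Axin1).

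**Figure D2:**
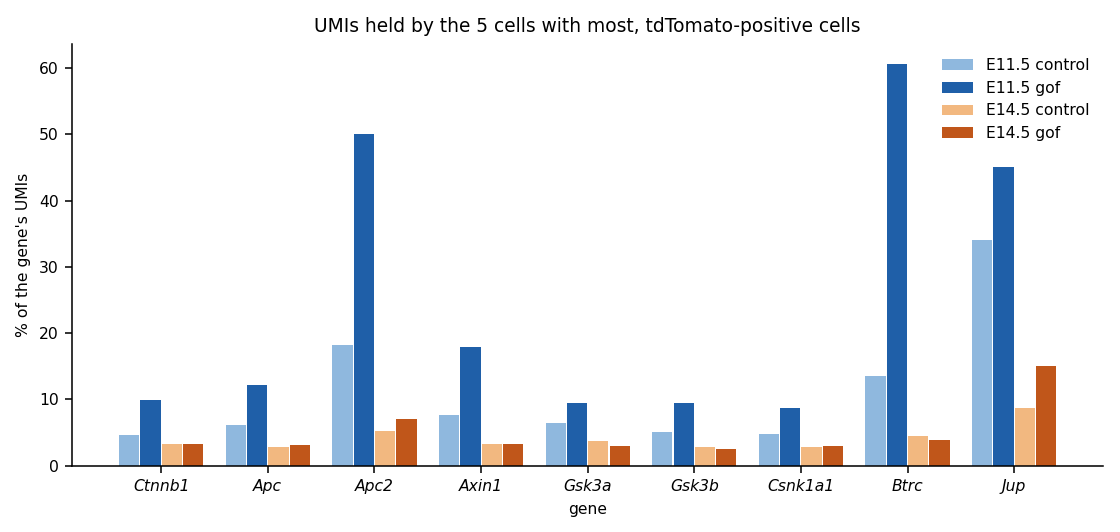
Share of each gene's UMIs (vertical axis, percent, from 0) that came from the 5 tdTomato-positive cells with the most UMIs of that gene, by library. In the E11.5 gof library these 5 cells held 60.6% of Btrc UMIs and 45.1% of Jup UMIs.

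Jup (chr11:100368958-100397763, - strand) encodes plakoglobin, an armadillo protein of desmosomes and adherens junctions. Its whole-library level was 6.08 CPM (5.51 to 6.69) in the E11.5 control and 15.1 (14 to 16.2) in the E11.5 gof library, and 7.1 (6.59 to 7.65) and 6.91 CPM (6.36 to 7.49) at E14.5. The E11.5 gof library stood apart from the other 3, and the log2 ratio of 1.18 was called. Jup was also called in tdTomato-negative cells at E11.5, at 5.75 and 15.1 CPM, a ratio of 1.25. In positive cells it was at 4.93 (3.63 to 6.56) and 14.2 CPM (10.6 to 18.7) at E11.5 and at 10.4 (9.07 to 12.0) and 8.94 CPM (7.68 to 10.4) at E14.5. The called E11.5 ratio of 1.36 there rested on 47 control and 51 gof UMIs, of which 5 cells held 34.0% and 45.1%. It was 0.46 and not called under a stricter cell filter (2000 genes or more, mitochondrial UMIs up to 5%), 0.88 and not called at 4 or more tdTomato UMIs, and 1.10 and not called without neuron, choroid plexus and non-neural gates. The ratios of 0.88 and 1.10 were still past the 1.5-fold limit, so the filter or the intervals took the call.

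Jup differed widely between cell classes. In the E11.5 gof library it stood at 117 CPM (101 to 135) in the endothelial gate, 34.7 (30.8 to 39.1) in the mesenchymal and 28.9 (19.4 to 41.6) in the Cajal-Retzius gate, against 2.08 CPM (1.32 to 3.12) in the progenitor gate. The 45 endothelial cells of the E11.5 control held 118 CPM (94.5 to 146). Endothelial and mesenchymal cells were more frequent in the E11.5 gof than in the E11.5 control library, at 1.68% against 0.691% and 17.2% against 9.49% of kept cells. The summed levels of the 6 markers of each class were 68.5 against 28.3 CPM and 742 against 296 CPM, with no marker at 0 in tdTomato-positive cells of either library. Without the mesenchymal, endothelial, mural, myeloid and erythroid gates the whole-library ratio was 0.95, still past the 1.5-fold limit. It was not called because both sums fell under the 10 CPM filter. Over the gates of both ages Jup was higher in gof in 11 of 14 comparisons and lower in 3, and 6 of the 14 passed the filter. In tdTomato-positive cells at E11.5 the same marker sums were 35.4 and 66.7 CPM for endothelial and 101 and 160 CPM for mesenchymal cells, and the Cajal-Retzius gate held 1.24% and 4.76% of the cells, control first. The part of these cells in the Jup difference was not tested beyond the values given. Inside the mesenchymal gate Jup was itself called higher in gof at E11.5, at 34.7 against 22.7 CPM (19.0 to 26.9), a log2 ratio of 0.59 that was not called with every cell weighted equally (0.48) or with 5 CPM added (0.52). Shares of all cells with a Jup UMI were 4.92% and 7.84% at E11.5, or 1.76% and 3.91% once thinned. In erythroid cells, which lack junctions, they were 2.37% and 3.14%, or 1.18% and 1.35% thinned, at median depths of 13168 and 11434 UMIs against 8172.5 and 5644 UMIs over all cells.

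**Figure D3:**
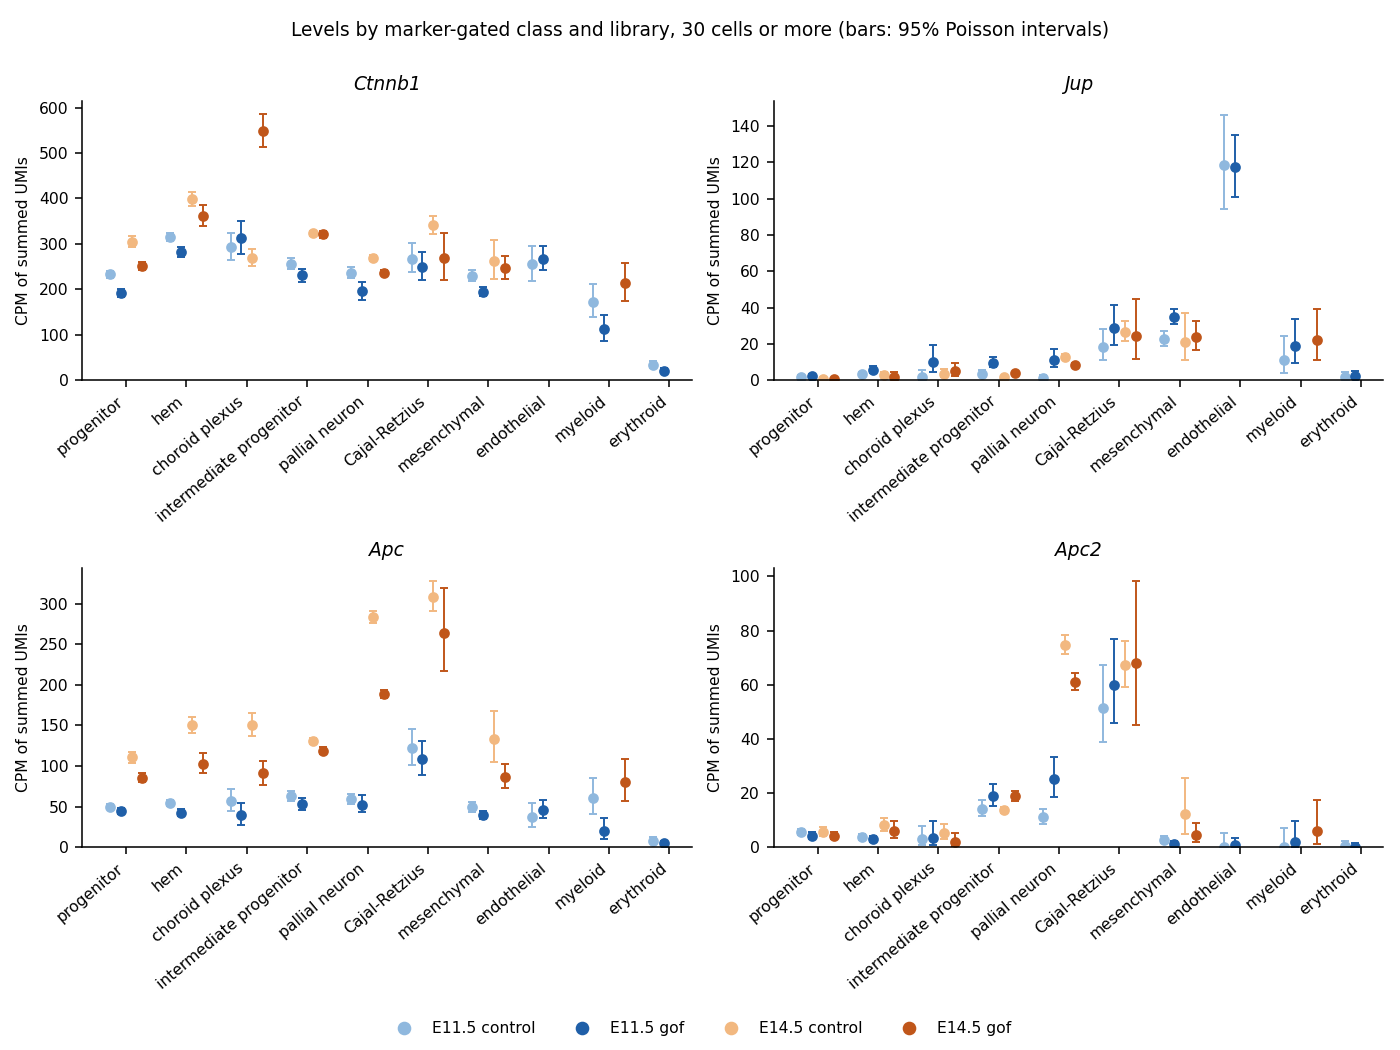
Levels in CPM (vertical axis, linear, from 0) of Ctnnb1, Jup, Apc and Apc2 in each marker-gated class of 30 cells or more (horizontal axis), coloured by library, with 95% Poisson intervals. Jup was highest in the endothelial gate at E11.5, Apc2 in the Cajal-Retzius and pallial neuron gates, and Ctnnb1 reached 548 CPM in the choroid plexus gate of the E14.5 gof library.

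The other members were ordered across classes in different ways. Classes were gated on 6 markers each, none of them a member, and are named by those markers. The intermediate progenitor gate at E14.5 also held progenitor markers, which summed to 1573 CPM in control and 1458 in gof. In the progenitor gate they summed to 1542 and 1773 CPM. Sstr2, kept out of the gates as a check, was at 47.0 CPM there against 39.8 in other control cells, and 63.6 against 50.2 in gof. Elavl4, also kept out, was at 283 against 197 and at 284 against 173 CPM. In the E14.5 control, where 7 gates had 50 cells or more, the highest gate exceeded the lowest 14.4-fold for Apc2, 2.79-fold for Apc, 2.43-fold for Gsk3b, 2.16-fold for Btrc, 1.57-fold for Gsk3a, 1.52-fold for Ctnnb1, 1.35-fold for Axin1 and 1.27-fold for Csnk1a1. Jup spanned 39.1-fold. Apc2 was at 74.8 CPM (71.4 to 78.4) in the pallial neuron and 67.2 (59.0 to 76.3) in the Cajal-Retzius gate, which overlapped, then dropped to 13.6 CPM (12.4 to 14.8) in the intermediate progenitor and 5.65 (4.19 to 7.45) in the progenitor gate. Apc was also highest in the neuronal gates, at 309 CPM (291 to 328) in Cajal-Retzius and 284 (277 to 290) in pallial neuron cells, which did not overlap. The choroid plexus, hem, mesenchymal and intermediate progenitor gates followed at 150, 150, 134 and 130 CPM, each overlapping the next, and the progenitor gate was lowest at 111 (104 to 118). Gsk3b too was highest in the pallial neuron, Cajal-Retzius and intermediate progenitor gates, at 453 (444 to 461), 436 (414 to 458) and 420 CPM (413 to 426), and lowest in the choroid plexus gate, at 186 CPM (171 to 202). Btrc was at 86.2 CPM (76.9 to 96.4) in Cajal-Retzius, 82.2 (72.4 to 93.0) in choroid plexus, 72.4 (65.9 to 79.3) in hem and 70.3 (50.2 to 95.8) in mesenchymal cells, each overlapping the next, and lowest in progenitors at 39.9 (35.8 to 44.3). In the choroid plexus gate 4 cells held 17.8% of the Btrc UMIs. In the E14.5 gof library the mesenchymal gate was the highest for Btrc, at 77.2 CPM against 47.8 in the choroid plexus gate. Neighbouring gates overlapped for most of the order of Axin1 and Gsk3a. At E11.5 every member was lowest or near lowest in the erythroid gate, where Ctnnb1 was at 34.0 CPM in control and 19.8 in gof.

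Within gated classes 14 comparisons of gof with control had at least 50 cells on each side. No member was called in the progenitor, hem, Cajal-Retzius, choroid plexus or intermediate progenitor gates at E11.5, beside 8.27%, 6.26%, 4.93%, 5.93% and 13.4% of all genes, or in the progenitor, hem and intermediate progenitor gates at E14.5, beside 11.6%, 19.4% and 15.5%. The remaining calls were 2 in the pallial neuron gate (13.9% of genes), 1 in the mesenchymal gate (9.39%) and 1 in the erythroid gate (8.72%) at E11.5. At E14.5 they were 3 in the choroid plexus gate (33.8%), 1 in the pallial neuron gate (12.0%) and 1 in the mesenchymal gate (9.75%).

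Apc was the lower in gof in all 14 gate comparisons, with log2 ratios from -0.72 to -0.13, and was called in 3 of the 13 in which it passed the filter. Gsk3a was the higher in 13 of 14, from -0.11 to 0.57, the exception being the choroid plexus gate at E11.5, and was called in none. In its 13 tested gates Apc was also the lower under each of the other scalings and filters run, and Gsk3a was the higher in 11 to 14 gates. Leaving the erythroid gate aside, 3.34% of 6555 genes tested in all 13 gates were lower in every one, as Apc was. In the same gates 3.95% were higher in all but 1 or more, as Gsk3a was. The gates of an age come from the same pair of libraries and are not independent of each other. Ctnnb1 was lower in 12 of 14, and 15.2% of 3535 genes tested in all 14 were lower in at least 12. In tdTomato-negative cells of the gates Apc was lower in 11 of 11 and Gsk3a higher in 11 of 11. Of 6534 genes tested in the 10 of these gates other than the erythroid, 6.23% were lower in each and 3.09% higher in each.

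**Figure D4:**
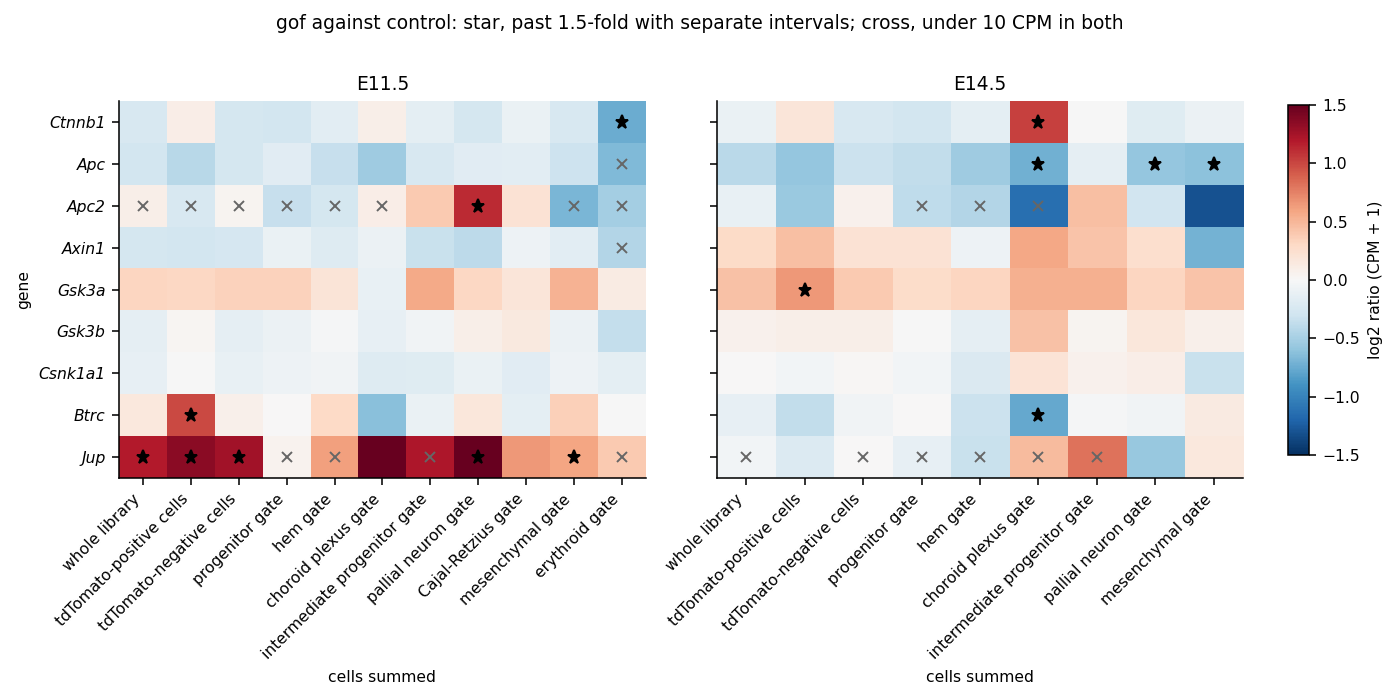
Log2 ratio of gof to control after adding 1 CPM (colour, red higher in gof, blue lower) for each gene (vertical axis) in whole libraries, in tdTomato-positive and tdTomato-negative cells and in each gated class (horizontal axis), E11.5 left and E14.5 right. Stars mark calls and crosses mark sums under 10 CPM on both sides, and the Apc row is blue in every gate.

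The choroid plexus gate at E14.5 held the most called members, 3. Ctnnb1 stood at 269 CPM (251 to 288) in 139 control cells and 548 (513 to 585) in 81 gof cells, a called log2 ratio of 1.03 that ranged from 0.92 to 1.12 over the alternatives. Apc was at 150 and 90.7 CPM and Btrc at 82.2 (72.4 to 93.0) and 47.8 CPM (37.8 to 59.7), called lower at -0.72 and -0.77. The cells of this gate were not alike in the 2 libraries. Ttr, the transthyretin gene typical of choroid plexus epithelium, was at 95610 CPM in control and 21583 in gof, and the 6 choroid plexus markers summed to 6578 and 1396 CPM. The 5 Wnt feedback genes used below summed to 157 and 1843 CPM, and the intermediate progenitor markers to 158 and 429 CPM. Whether the level of Ctnnb1 changed within choroid plexus cells or the gate held other cells cannot be told apart here.

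In the pallial neuron gate Apc was called lower in gof at E14.5, at 284 against 189 CPM (183 to 194), with a log2 ratio of -0.59 at the limit. It was between -0.58 and -0.51 and not called under 7 of the alternatives: no doublets removed, median-ratio scaling, the total without mitochondrial, ribosomal and haemoglobin genes, 5 CPM added, at least 3 markers, no high Btrc cells, and every cell weighted equally, where Jup was called instead. Beside these values, the summed markers of that gate were 210 CPM in control and 97.5 in gof for Cajal-Retzius, 803 and 1093 for progenitor, 768 and 484 for intermediate progenitor and 1476 and 1824 for pallial neuron genes. Their part in the Apc difference was not tested. In the mesenchymal gate at E14.5 Apc was at 134 and 86.6 CPM, called at -0.62, and not called under the stricter cell filter (-0.67), with median-ratio scaling (-0.57) or with the reduced total (-0.56). At E11.5 the pallial neuron gate showed Apc2 at 11.1 CPM (8.66 to 14) in control and 25.2 (18.6 to 33.3) in gof and Jup at 1.43 (0.653 to 2.71) and 11.3 CPM (7.09 to 17.1), both called higher, on 9 and 22 Jup UMIs. Neither was called under the stricter cell filter. Beside these values, the summed Cajal-Retzius markers of that gate were 74.9 CPM in control and 148 in gof, the pallial neuron markers 412 and 619 CPM, and the median depth 11364 and 5836 UMIs. Its progenitor markers summed to 1264 and 1085 CPM, against 987 and 966 CPM in the progenitor gate. Nrn1, a marker kept out of the gate, was at 45.5 CPM against 38.4 in other control cells, and 86.4 against 32.2 in gof. Mef2c, also kept out, was at 21.6 against 23.8 and at 19.0 against 41.2 CPM. The control gate was thus poorly marked as neuronal, and the part of its other cells in these differences was not tested. In the erythroid gate Ctnnb1 was called lower, a log2 ratio of -0.75, and with no doublets removed the ratio was 0.000964.

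Among tdTomato-positive cells, 5 gates allowed the comparison. Gsk3a was the higher in gof in 5 of 5, by log2 ratios of 0.32 to 0.85, and Apc the lower in 5 of 5, from -0.81 to -0.10. Of 7873 genes tested in all 5, 6.41% were higher and 10.05% lower in each. In the intermediate progenitor gate at E14.5, 2 members were called, beside 28.3% of genes: Axin1 at 42.2 CPM (34.9 to 50.5) in control and 69.1 (62.9 to 75.7) in gof, and Gsk3a at 36.8 (30.1 to 44.7) and 67.0 CPM (60.9 to 73.5). The choroid plexus gate gave 4 calls (34.1% of genes), with Ctnnb1 and Axin1 higher and Apc and Btrc lower. Axin1 there was at 37.6 and 59.0 CPM. In the pallial neuron gate 3 members were called (23.0%): Apc lower, at 360 and 205 CPM, Apc2 lower, at 79.6 and 52.0 CPM, and Axin1 higher, at 33.3 and 51.6 CPM. In the hem gate at E14.5 no member was called (19.2%), and Axin1 stood at 46.9 and 44.7 CPM. At E11.5 the hem gate gave 1 call (7.97%), Btrc, at 30.2 and 59.0 CPM. Over all cells of that gate, 3 gof cells of 10 or more UMIs held 82 of 290 Btrc UMIs (28.3%). In control 2 such cells held 25 of 460 (5.43%). The part of such cells in the call is not given here.

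Within the intermediate progenitor gate at E14.5, which also held the progenitor markers given above, tdTomato-positive and tdTomato-negative cells of one library could be compared. Apc stood at 164 CPM (155 to 174) in 388 positive and 98.6 CPM (93.4 to 104) in 876 negative gof cells, a log2 ratio of 0.73 that was called, 1 member beside 27.7% of genes tested. In the control library Apc was at 176 CPM (160 to 192) in 162 positive and 126 CPM (122 to 130) in 1805 negative cells, a ratio of 0.48 that was not called. Apc2 was called there, at 22.5 against 12.7 CPM, beside 8.69% of genes. Jup, under the 10 CPM filter in each sum, was at 9.57 CPM (7.37 to 12.2) against 1.5 (0.915 to 2.31) in gof and 6.44 CPM (3.82 to 10.2) against 1.34 (0.943 to 1.85) in control, so the positive cells were the higher ones in both genotypes with separate intervals.

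To compare cells with more and fewer UMIs of Wnt feedback genes, tdTomato-positive cells were divided by 5 such genes, none of them a member: Notum, Nkd1, Sp5, Dkk1 and Wif1. Cells with at least 3 UMIs over at least 2 of these genes, called feedback-high, made up 26.3% and 55.1% of positive cells at E11.5 and 31.3% and 68.3% at E14.5, control first. The other positive cells were not free of Wnt target transcripts. In the gof libraries they held Sp5 at 84.7 CPM (E11.5) and 8.68 (E14.5), and Axin2 at 92.6 and 37.3 CPM. In the E11.5 gof library Ctnnb1 stood at 385 CPM (361 to 412) in 162 feedback-high cells and 248 (221 to 277) in 132 other positive cells. In the E14.5 gof library it stood at 431 (420 to 442) in 712 and 280 CPM (268 to 293) in 331 cells. Both differences were called, with log2 ratios of 0.64 and 0.62. In the control libraries the same division gave 320 and 309 CPM at E11.5 and 359 and 320 CPM at E14.5, with ratios of 0.05 and 0.17 that were not called. Whether the gof and control ratios differ was not tested, since each rests on 1 library.

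Ctnnb1 was the only member called in the E11.5 gof division, beside 9.16% of genes, and 1 of 2 at E14.5, beside 27.0%. The E11.5 call was lost with the stricter cell filter (0.58) and with every cell weighted equally (0.53), and the E14.5 call with no doublets removed (0.56) and at 4 or more tdTomato UMIs (0.57). All of these ratios lay near the 1.5-fold limit. The second member called at E14.5 was Jup, at 11.6 CPM (9.85 to 13.6) in feedback-high and 3.50 (2.22 to 5.25) in other cells, a ratio of 1.49. At 4 or more tdTomato UMIs the Jup ratio was 0.74 and was not called. Gsk3b, Csnk1a1 and Btrc differed little across the division in gof, with Gsk3b at 399 and 402 CPM and Btrc at 55.1 and 52.2 CPM at E14.5.

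The classes on either side of this division were not the same, and their part in the differences was not tested. In the E14.5 gof library the intermediate progenitor gate held 43.8% of feedback-high and 23.0% of other positive cells, and the pallial neuron gate 3.65% and 28.7%. Ctnnb1 in those gates over all E14.5 gof cells was 321 CPM (314 to 328) and 236 (230 to 242). The choroid plexus gate, where Ctnnb1 was highest (548 CPM), held 8.99% and 2.42%. The progenitor gate held 0.562% and 14.8%, and the hem gate 7.72% and 13.6%. In the E11.5 gof library the hem gate held 46.3% of feedback-high and 33.3% of other positive cells. There the choroid plexus gate held 8.02% and 2.27%, and the intermediate progenitor gate 12.3% and 3.03%. The progenitor gate held 1.85% and 12.9%, and the Cajal-Retzius gate 0.617% and 9.85%. Median depth was 11827 against 7694.5 UMIs at E11.5 and 15499.5 against 17385 UMIs at E14.5 in gof. In control it was 23296 against 11120 UMIs at E11.5 and 17822 against 12899 UMIs at E14.5, so feedback-high control cells were the deeper ones at both ages. In the E14.5 control 3 members were called lower in feedback-high cells, beside 25.6% of genes called: Apc at 163 against 258 CPM, Apc2 at 12.5 against 50.2 CPM and Jup at 3.56 against 15.2 CPM. Cajal-Retzius cells made up 2.88% of those feedback-high and 27.8% of the other cells, and pallial neurons 3.75% and 16.4%. In the E11.5 control no member was called, beside 2.03%.

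**Figure D5:**
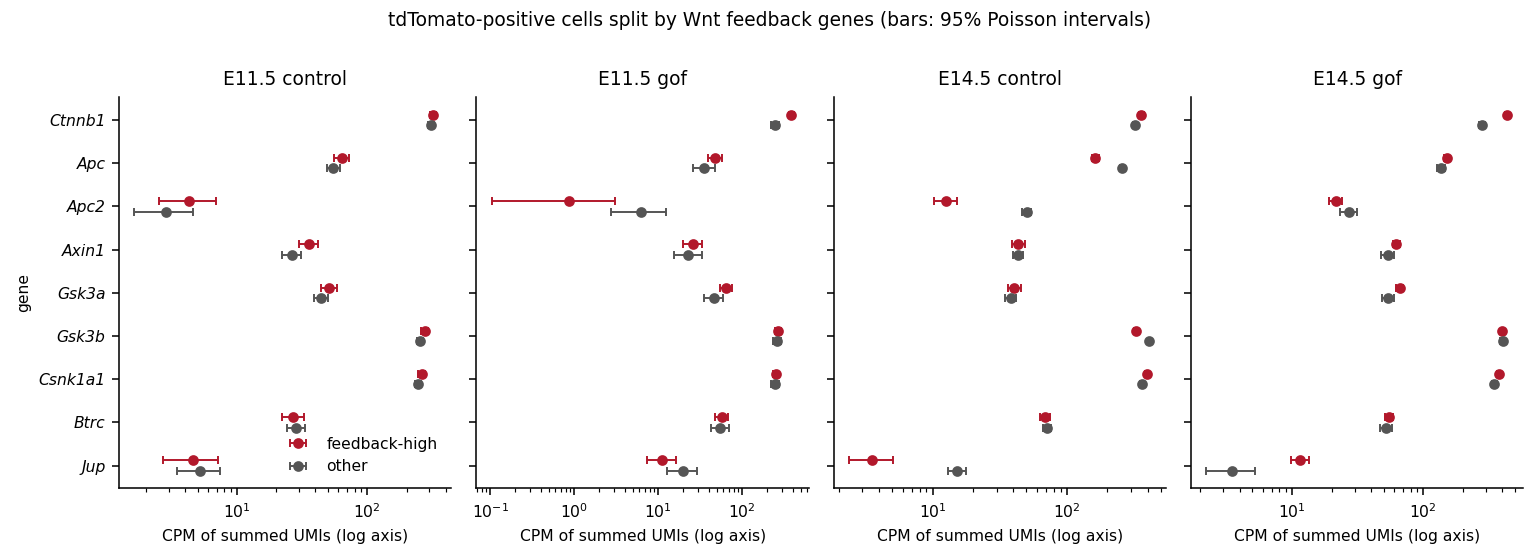
Level of each gene in CPM (horizontal axis, log scale) in Wnt feedback-high tdTomato-positive cells (red) and other tdTomato-positive cells (grey) of each library, with 95% Poisson intervals. The Ctnnb1 points separate in both gof libraries (385 against 248 and 431 against 280 CPM) and lie close in the E11.5 control, while Apc, Apc2 and Jup separate in the E14.5 control.

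From E11.5 to E14.5 most of the destruction complex was called higher in both genotypes. In control libraries 6 of 9 members were called higher, Apc, Apc2, Axin1, Gsk3b, Csnk1a1 and Btrc, with log2 ratios of 1.75, 2.08, 0.68, 0.72, 0.67 and 0.87. Such calls were common in this comparison, at 51.7% of all genes. With the total taken without mitochondrial, ribosomal and haemoglobin genes, 3 members were called, Apc, Apc2 and Btrc. In gof libraries the same 6 were called higher, by 1.61, 1.88, 1.22, 0.92, 0.80 and 0.59, beside 50.5% of genes, and Jup was called lower, at -1.02, beside 8.88%. Ctnnb1 was not called, at 0.29 in control and 0.43 in gof. Gsk3a stood apart with -0.10 and 0.01.

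The age difference of Apc was present in each gate that could be compared, 7 in control and 6 in gof libraries. It was called higher at E14.5 in 13 of 13 comparisons, by log2 ratios of 0.94 to 2.24. Beside these calls, the share of all genes called higher in the control libraries was 52.3% in the progenitor, 50.3% in the hem, 32.1% in the Cajal-Retzius, 36.5% in the choroid plexus, 48.7% in the intermediate progenitor, 46.0% in the pallial neuron and 32.7% in the mesenchymal gate. In the gof libraries it was 46.9%, 42.7%, 25.9%, 48.8%, 43.8% and 39.5% for the same gates without the Cajal-Retzius gate. Axin1 was called higher in 11 of 13, Csnk1a1 and Btrc in 9 each, Gsk3b in 3 and Ctnnb1 in 1. Apc2 and Jup passed the filter in 6 of the 13 each, and were called higher in 3 and 1 of those. In progenitors Apc went from 49.8 CPM (46.5 to 53.3) to 111 (104 to 118) in control and from 44.3 (40.4 to 48.4) to 85.6 (80.7 to 90.8) in gof. Gsk3a was called in none of the 13 and was lower at E14.5 in 10 of them.

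Other genes of the pathway, in lists chosen by function with earlier results known, were compared in tdTomato-positive cells, where 10.3% of all genes were called at E11.5 and 23.5% at E14.5. At E11.5, 1 of 19 tested kinase and scaffold partners was called higher and 1 lower, none of 9 ubiquitin ligase subunits was called, 2 of 15 nuclear partners were called higher and 1 lower, and 1 of 8 junction partners was called each way. Their median log2 ratios were -0.05, -0.05, -0.14 and -0.01, against -0.08 over all genes. At E14.5 the counts were 1 higher and 4 lower of 20, none of 9, 2 higher and 2 lower of 15, and none of 7, with medians of -0.12, -0.09, -0.06 and -0.13 against -0.12. Besides Axin2, given above, the genes called higher were Lef1 and Tcf7 at both ages and Cdh5 at E11.5. Lef1, a TCF family transcription factor, went from 82.6 to 180 CPM at E11.5 and from 193 to 443 CPM at E14.5, and Tcf7, another, from 7.66 to 15.1 and from 7.43 to 21.1 CPM. The endothelial cadherin Cdh5 went from 5.88 to 11.7 CPM at E11.5, beside the endothelial marker sums given above, of which it is one.

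The lowest ratios of these lists belonged to Tcf7l1, Vcl and Amer2 at E11.5 and to Amer2, Tle1 and Ppp2cb at E14.5. Tcf7l1, a TCF factor that represses in the absence of Wnt, fell from 40.3 to 23.2 CPM at E11.5, and the vinculin gene Vcl from 115 to 69.7 CPM. Amer2, a membrane partner of APC, fell at both ages, from 27.1 to 17.3 and from 56.8 to 31.9 CPM. Tle1, a Groucho-family co-repressor, fell from 270 to 151 CPM at E14.5, and Ppp2cb, a catalytic subunit of protein phosphatase 2A, from 71.4 to 43.3 CPM.

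Across 31 sums of class and library with 50 cells or more, each member's level was compared with 6768 genes by Pearson correlation of log2(CPM + 1), and again over the 29 sums without erythroid cells. These sums share 4 libraries and their depths, so the values describe the data and carry no test. Apc was most like Nbea (r = 0.98, and 0.96 without erythroid sums), Ccni and Ube4b, and Apc2 most like Rtn1 (0.96 and 0.95), Myt1l and Cntn2, genes of neurons in the case of Nbea, Rtn1, Myt1l and Cntn2. Gsk3b was nearest to Csnk1e (0.98 and 0.95), another casein kinase gene, then Evl and Peli1. Csnk1a1 was nearest to Usp47 (0.98 and 0.94), Appbp2 and Glyr1, and Axin1 to Srek1 (0.96 and 0.90), Strn3 and Tfb2m. Likeness was weaker without erythroid sums for Ctnnb1, nearest to Dgcr2 (0.96 and 0.81), Txndc15 and Tfg, and for Gsk3a, nearest to Rbm22 (0.91 and 0.79), Mrps5 and 1110004F10Rik. Btrc was nearest to Arhgef12 (0.88 and 0.89), Mical3 and Epn2, and Jup to Tax1bp3 (0.85 and 0.91), Plk2 and Plscr3. Among the members, Apc and Csnk1a1 had r = 0.92 (0.86 without erythroid sums), Axin1 and Csnk1a1 0.93 (0.85) and Apc2 and Gsk3b 0.78 (0.83). Ctnnb1 and Jup, the armadillo pair, had 0.09 and -0.27.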

How the data were processed

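Single cells were captured with 10x Chromium 3′ v3.1 chemistry. The authors deposited 1 matrix of raw UMI counts per library, and the submitters' processing notes name Cell Ranger 7.1.0 and mm10. No source used here names the gene annotation. For the ages, E11 and E14 in the sample titles, the design text's E11.5 and E14.5 are used. No deposited barcode held fewer than 500 UMIs.

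Cells entered with 1000 genes or more and a mitochondrial share of UMIs up to 10%, less those of top Scrublet score, 0.8% per 1000 barcodes (Python 3.11.15, scanpy 1.11.5, numpy 2.4.6, scipy 1.17.1). No other filter on the samples was applied, and the 67 rows whose symbol occurs more than once include no member. The depth of a library was 59594082 to 113821989 UMIs. A class other than progenitor needed at least 3 UMIs over at least 2 of its 6 markers and more markers than any other of the 12 classes, and a progenitor the same with no other class reached. Counts were summed over cells and divided by the summed total. Poisson intervals were exact, and shares of cells were also computed after thinning to 3000 UMIs, which left out 103, 655, 270 and 271 cells. The 3′ counts are not comparable between genes as amounts per length. The calling step was checked on simulated counts.

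The named genes were all 9 members, Notum and Nkd1, Axin2 and Lef1, the 3 highest and 3 lowest ratios of the pathway lists in tdTomato-positive cells at each age, and the 3 genes nearest to each member (mean of at least 20 CPM). Members and lists were chosen with earlier results of these data known. Protein sequences were not used here.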

Additional observations from a re-analysis of the deposited data

How the results depend on the processing

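No paired analysis was possible because each group had 1 library, and for the same reason no library could be left out and each value describes these libraries only. Depth limits what can be said of members under 10 CPM, Jup and, at E11.5, Apc2. For counts of calls, 206 recomputed values stayed within 1.5 times the value reported and 62 moved beyond it. For single members 1820 stayed within the spread or kept their call, 125 moved and 3 reversed. The cause of each change was not tested, except that a filter or fold limit sets how many genes can be called. The alternatives without cells of 10 or more Btrc UMIs and, within a library, without neuron, choroid plexus and non-neural gates were chosen after seeing the data. The reversed values were Btrc in tdTomato-positive cells at E11.5 without cells of 10 or more Btrc UMIs (-0.040), Btrc in positive against negative cells of the E11.5 gof library at 4 or more tdTomato UMIs (-0.22), and Ctnnb1 in the erythroid gate with no doublets removed (0.000964).

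The number of genes called between gof and control depended on the limits. In whole libraries at E11.5 the 706 genes became 242 with a 50 CPM filter, 1613 with no filter and 146 at a 2-fold limit, and at E14.5 the 1086 genes became 390, 1979 and 348. In tdTomato-positive cells the 899 genes at E11.5 became 280 with a 50 CPM filter and 247 at 2-fold, and the 2403 genes at E14.5 became 971, 3739 with no filter and 1014 at 2-fold.

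Counts of members called moved as follows. In whole libraries at E11.5 the 1 call was 0 without non-neural gates. In tdTomato-positive cells at E11.5 the 2 calls were 1 under the stricter cell filter (2000 genes or more, mitochondrial UMIs up to 5%), 1 without neuron, choroid plexus and non-neural gates, 1 without cells of 10 or more Btrc UMIs, 1 at 1 or more tdTomato UMIs and 0 at 4 or more. At E14.5 the 1 call was 3 with every cell equal and 3 without the high Btrc cells, where Apc and Apc2 were also called lower, and 0 at 1 or more tdTomato UMIs. Between positive and negative cells, the E11.5 control went from 0 to 1 with the total taken without mitochondrial, ribosomal and haemoglobin genes. The E11.5 gof library went from 2 to 0 at 1 or more tdTomato UMIs and to 1 at 4 or more or without the high Btrc cells. The E14.5 control went from 1 to 0 with no doublets removed, with 5 CPM added, at 1 or more and at 4 or more tdTomato UMIs and without neuron, choroid plexus and non-neural gates. The E14.5 gof library went from 0 to 1 with median-ratio scaling, every cell equal or 4 or more tdTomato UMIs.

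Within gates at E11.5, the intermediate progenitor count went from 0 to 1 under the stricter cell filter and under the total without mitochondrial, ribosomal and haemoglobin genes, and to 2 with median-ratio scaling or every cell equal. The pallial neuron count went from 2 to 0 under the stricter cell filter. The mesenchymal count went from 1 to 2 with median-ratio scaling or that reduced total and to 0 with 5 CPM added, and the erythroid count from 1 to 0 with no doublets removed or every cell equal. At E14.5 the choroid plexus count went from 3 to 5 with the reduced total or every cell equal, and the intermediate progenitor count from 0 to 1 with every cell equal. The pallial neuron count went from 1 to 0 with no doublets removed, median-ratio scaling, the reduced total, 5 CPM added, at least 3 markers or no high Btrc cells, and to 2 with 0.1 CPM added, while with every cell equal Jup was called in place of Apc. The mesenchymal count went from 1 to 0 under the stricter cell filter, median-ratio scaling or the reduced total, and to 2 with no doublets removed. In the division by feedback genes, the E11.5 gof count went from 1 to 0 under the stricter cell filter or every cell equal and to 2 at 1 or more tdTomato UMIs, and the E14.5 gof count from 2 to 1 with no doublets removed and to 0 at 4 or more tdTomato UMIs. The count called between ages in control libraries went from 6 to 3 with the reduced total.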
